A study of Homo sapiens with 6 samples.

Results

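The keratin genes were followed in 76N cells given an siRNA against Ecd and in 76N cells given a control siRNA, with 3 arrays in each group. 76N is a cultured line of mammary epithelial cells that the labels call normal, grown here in DFCI-1 medium. ECD is the human counterpart of the fly gene ecdysoneless. Each array held total RNA of 1 culture, which the labels call a biological replicate. All cultures were of 1 line and were transfected, so the only stated difference between the groups was the siRNA, and its dose and duration are not stated in the labels. Members were all probe sets whose only annotated symbol was KRT followed by a number and at most 1 letter from A to C. They came to 56 of the 54675 probe sets and read 44 of 19775 genes with a single-symbol probe set.

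Keratins are the intermediate filament proteins of epithelial cells. Each filament is built of pairs of 1 acidic type I and 1 basic type II keratin, and the pair in use changes with the kind of epithelium and its state. In the breast, KRT5 and KRT14 mark the basal layer, and KRT7, KRT8, KRT18 and KRT19 the luminal layer. In stratified epithelia KRT1 and KRT10 replace the basal pair as cells leave the basal layer, and KRT16 is induced on wounding and in hyperproliferative skin.

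Signals are MAS5 values, the brightness of a probe set on a linear scale. They were assumed to have been brought to a common level between arrays by the authors. Differences are on the log2(signal + 16) scale, as Ecd siRNA over control siRNA, and were fitted with limma over all genes, each read by its brightest probe set. The test took in genes whose mean reached the upper 60% of the table, equal to a signal of 84.6. "Rose" and "fell" are used where the Benjamini-Hochberg adjusted p over all 14603 tested genes was under 0.05. P-values rest on the spread between the 6 cultures, and in such bulk RNA fewer cells of a kind and less RNA per cell cannot be told apart. A signal also depends on the probes, so levels of different keratins are given side by side without being ranked.

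Array medians ran from 134.6 to 146.7 with Ecd siRNA and from 128.7 to 147.6 with control siRNA, and the ratios of 3′ to 5′ GAPDH control probe sets from 0.974 to 1.003 with Ecd siRNA and from 0.974 to 0.980 with control siRNA. ECD itself had signals of 542.5 to 599.8 with Ecd siRNA and of 1007.2 to 1076.6 with control siRNA (log2 change -0.82, SE 0.10, limma adjusted p = 0.000172). Of 9 epithelial markers listed, all were above the filter, 4 rose, 1 fell (LAD1) and 4 did not pass. Counts for this and the other marker lists stand beside 10.1% of all tested genes higher and 11% lower. CDH1 (E-cadherin), which rose, was at a mean of 11932 ± 325.9 and of 10057 ± 102.8 (SD, n = 3 each) with Ecd siRNA and control siRNA, EPCAM was at 2004 ± 133.3 and 2053 ± 287.5, and CLDN4 was at 265.6 ± 98.8 and 189.5 ± 71.8. Markers of other cells moved in part. All 10 proliferation genes listed fell (median -2.26). Of 12 fibroblast markers listed, 3 rose (FAP, FBLN1 and COL1A1), 3 did not pass and 6, among them PDGFRA, PDGFRB and COL3A1, were under the filter. The summed signal of all 12 was 9258.9 to 10785 with Ecd siRNA and 5871.3 to 6219.8 with control siRNA. Its brightest members were FAP (means of 5334 and 2610) and FBLN1 (2541 and 1486). The means of PDGFRA, COL1A2, COL3A1 and THY1 were lower with Ecd siRNA, so the sum does not describe the markers as a set. Of the endothelial and immune markers 3 and 1 were above the filter and 0 passed in limma (1 and 0 at an unadjusted p under 0.05, the 1 being CLDN5). The part of cell division and of these markers in the keratin values was not tested.

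Of the 44 keratin genes, 24 were bright enough to be tested and 5 of them passed the threshold. KRT16, KRT15 and KRT23 were higher with Ecd siRNA, and KRT18 and KRT75 were lower. That share of 20.8% stands beside 21.1% of all tested genes (10.1% higher and 11% lower), so the count for the family is near that of the array at large. Their median log2 change was 0.07, and the median over all tested genes was 0.01. The groups did not overlap in 8 of the 24, against 36.4% of all tested genes. By filament type, 3 of 12 tested type I keratins rose and 1 fell, while 0 of 12 type II keratins rose (also 0 at an unadjusted limma p under 0.05) and 1 fell. The type I rises include KRT23, which passed the filter only through its Ecd siRNA arrays and so had to differ to enter these counts. The difference between the types was not tested.

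**Figure D1:**
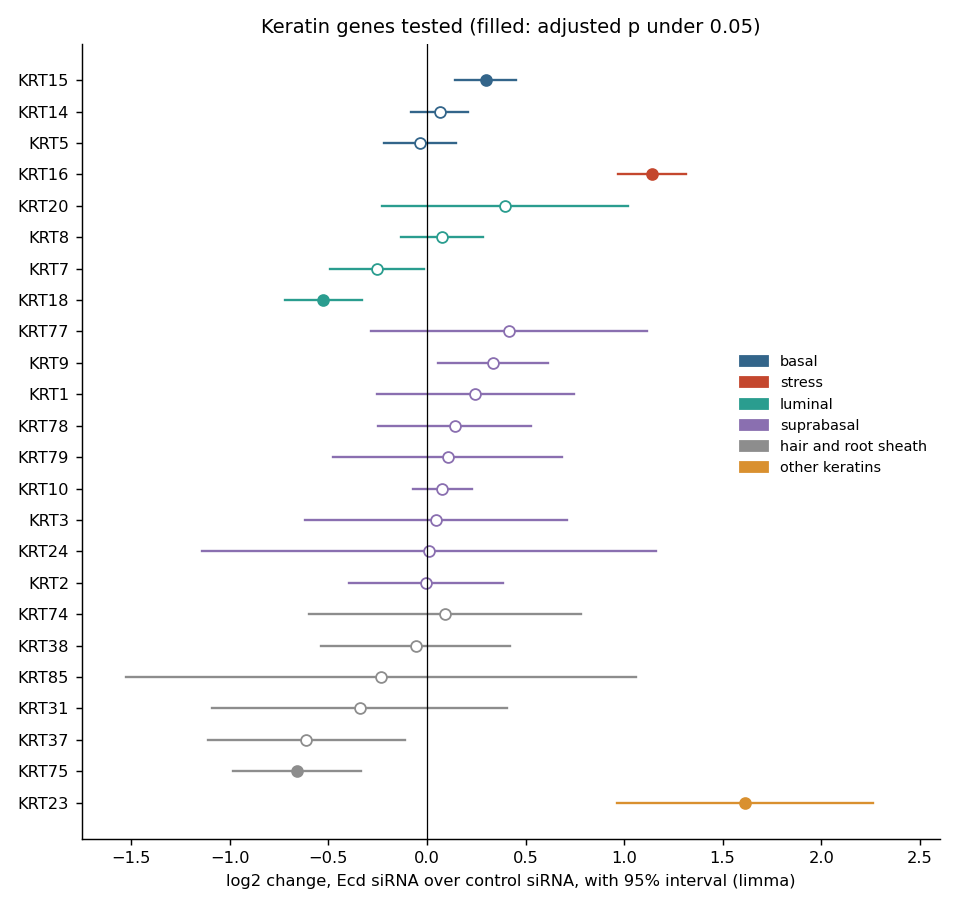
Log2 change of the 24 tested keratin genes, Ecd siRNA over control siRNA (horizontal axis), with the 95% interval of the limma fit, grouped and coloured by keratin class. Filled points have an adjusted p under 0.05: KRT16 is at 1.14 with a narrow interval and KRT23 at 1.61 with a wide one, and of the suprabasal keratins only KRT9 has an interval that leaves out 0.

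KRT16, a type I keratin of stressed and wounded epithelium, had the smallest adjusted p of the family. Its signals were 4489.1, 5302.9 and 5140.9 in the Ecd siRNA arrays, against 2216.6, 2261.8 and 2249.2 in the control arrays. Every Ecd siRNA array lay far above every control array, and the first was the lowest of its group. The means were 4978 ± 430.8 and 2243 ± 23.3 (SD, n = 3 each), a 2.21-fold rise (log2 change 1.14, SE 0.08, 95% interval 0.97 to 1.31, adjusted p = 4.15e-06). Among all tested genes 121 had a larger log2 rise. KRT16 was the only member of the stress class that could be read. The other stress keratins listed, KRT6A, KRT6B, KRT6C and KRT17, had no single-symbol probe set and were not analysed here, among them the type II partners of KRT16.

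**Figure D2:**
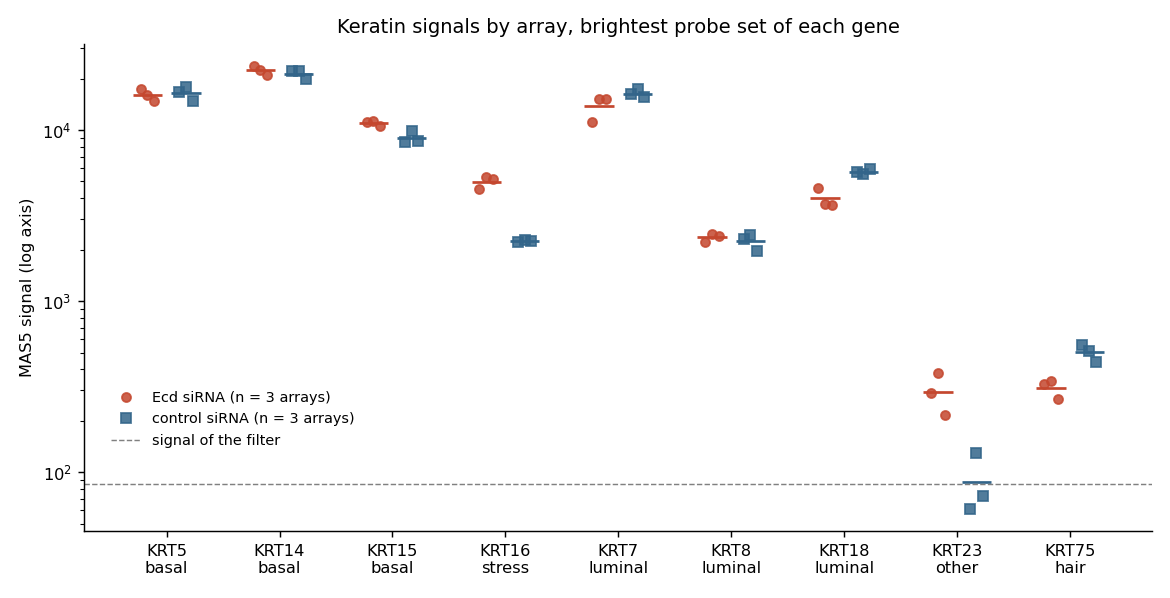
MAS5 signals (log axis) of 9 keratins in the 3 Ecd siRNA arrays (red circles) and the 3 control siRNA arrays (blue squares), with bars at the means and a dashed line at the filter signal of 84.6. KRT16 and KRT23 separate upwards and KRT18 and KRT75 downwards, KRT15 separates by a small margin, and KRT5, KRT14 and KRT8 overlap.

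Neither member of the basal pair passed the threshold, and their intervals exclude changes of the size seen in KRT16. KRT14, the type I keratin of basal cells, gave 23629.7, 22335.9 and 21083.5 with Ecd siRNA, against 22049.4, 22237.4 and 19871.6 with control siRNA. The ranges overlapped, and the log2 change was 0.06 with a 95% interval of -0.08 to 0.21 (adjusted p = 0.570). KRT5, its type II partner, gave 17320.8, 16034.7 and 14717.5 with Ecd siRNA, against 16747.4, 17810.9 and 14746.6 with control siRNA. These too overlapped (log2 change -0.04, 95% interval -0.22 to 0.15, adjusted p = 0.821). The brightest probe set of each array read 24572.8 to 27986.8, so KRT14 in particular read close to the top of the scale, and whether bright signals were compressed there was not tested.

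KRT15, a type I keratin of basal cells that also marks hair follicle stem cells in skin, was higher by a small amount. It gave 11202.1, 11244.8 and 10568.9 with Ecd siRNA, against 8483.9, 9801.5 and 8601.6 with control siRNA. The groups did not overlap, and the rise was 1.23-fold (log2 change 0.30, SE 0.07, adjusted p = 0.0119). The call was lost without control siRNA replicate 1 (0.26, adjusted p = 0.0658), without the intensity trend (adjusted p = 0.0840) and, narrowly, with arrays set to a common median (adjusted p = 0.0502).

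Among the luminal keratins KRT18 fell and its partner KRT8 did not pass. KRT18 is the type I and KRT8 the type II keratin of simple epithelia. KRT18 gave 4560.7, 3712.1 and 3658.0 with Ecd siRNA, against 5674.9, 5532.1 and 5897.5 with control siRNA. All Ecd siRNA arrays lay below all control arrays, the first nearest to them. The mean with Ecd siRNA was 69.8% of that with control siRNA (log2 change -0.52, SE 0.09, 95% interval -0.72 to -0.33, adjusted p = 0.00187). KRT8 gave 2215.4, 2457.6 and 2394.9 with Ecd siRNA, against 2317.9, 2447.3 and 1963.6 with control siRNA. The groups overlapped (0.08, 95% interval -0.13 to 0.28, adjusted p = 0.650). Both were read only by _x_at probe sets, which can bind related transcripts, and both genes have many processed pseudogenes, so what share of these signals came from other transcripts is unknown.

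KRT7, a type II keratin of ductal epithelium, was lower in its brightest probe set without passing the threshold. That probe set gave 11200.4, 15200.0 and 15089.1 with Ecd siRNA, against 16211.2, 17293.4 and 15491.3 with control siRNA. The groups just missed each other, with Ecd siRNA replicate 1 well below the rest (log2 change -0.25, SE 0.11, adjusted p = 0.133). Without that array the difference was -0.11. Its 3 other probe sets were dimmer. The one named without _s gave 434.9 to 511.3 with Ecd siRNA and 465.5 to 587.4 with control siRNA, overlapping (-0.08), and of the remaining 2 the tested one was at 0.15.

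KRT19, the type I keratin that separates luminal from basal cells in the breast, was under the filter in both its probe sets. They gave 3.8 to 43.8 with Ecd siRNA and 3.4 to 57.6 with control siRNA. KRT20, the type I keratin of intestinal epithelium, lay just above the filter at 117.0 to 193.1 and 81.0 to 150.0, overlapping (0.40, SE 0.28, adjusted p = 0.382). Of the luminal lineage genes outside the family, GATA3 (0.46), PROM1 (1.04) and CD24 (0.25) rose, 3 of 6 tested did not pass, and PGR, ELF5 and KIT were under the filter. Among all tested genes 10.1% were higher.

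Because type I and type II keratins pair, differences between 2 keratins were also formed within each array, which cancels the scaling of the array. KRT18 minus KRT8 was 1.04, 0.59 and 0.61 with Ecd siRNA, against 1.29, 1.17 and 1.58 with control siRNA, on the log2 scale. The groups did not overlap, and the difference moved by -0.60. This restates the changes of -0.52 in KRT18 and 0.08 in KRT8. KRT16 and KRT14 are both type I and so are not partners of each other. KRT16 minus KRT14 was -2.39, -2.07 and -2.03 with Ecd siRNA, against -3.30, -3.29 and -3.13 with control siRNA. The groups stood well apart, by 1.08, which restates the changes of 1.14 in KRT16 and 0.06 in KRT14 given above. KRT14 minus KRT5 moved by 0.10 and also did not overlap, at 0.45 to 0.52 and 0.32 to 0.43. KRT10 minus KRT1, a pair not drawn in the figure, moved by -0.17. Its groups overlapped, at 3.39 to 4.19 with Ecd siRNA and 3.78 to 4.11 with control siRNA. In RefSeq's gene order KRT16 lies between KRT14 and KRT17, and KRT18 beside KRT8. These differences were not tested beyond the overlap of the arrays, and KRT18 and KRT8 were read only by _x_at probe sets. How often other gene pairs separate in this way was not counted.

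**Figure D3:**
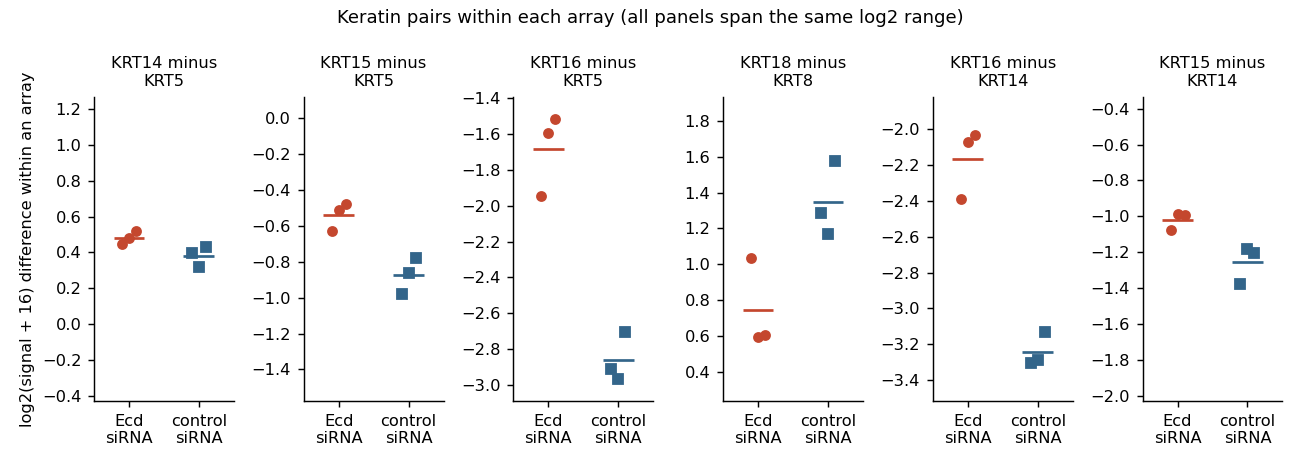
Difference of log2(signal + 16) between 2 keratins within each array (vertical axis), in 3 Ecd siRNA arrays (red, left) and 3 control siRNA arrays (blue, right), bars at the means and the same span of log2 units in every panel. The shift is 1.18 for KRT16 minus KRT5, -0.60 for KRT18 minus KRT8 and 0.10 for KRT14 minus KRT5. KRT16 minus KRT14 and KRT15 minus KRT14 set 2 type I keratins against each other. KRT10 minus KRT1, whose groups overlap, is not drawn.

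None of the 9 tested suprabasal keratins passed, beside 21.1% of all tested genes. Of these keratins 0 rose and 0 fell, 1 had an unadjusted limma p under 0.05 (KRT9), and the median log2 change was 0.11. The SE reached 0.52 (KRT24), so the values do not show that the class was unchanged. KRT10, the type I keratin of differentiating layers, was read by 3 tested probe sets that gave 2731.3 to 3285.9 with Ecd siRNA and 2528.9 to 3157.6 with control siRNA. Its brightest probe set was at 0.08 (SE 0.07, adjusted p = 0.482) and the others were at 0.08 and 0.15, and the groups overlapped in 2 of the 3. KRT1, the type II partner of KRT10, gave 164.2, 282.7 and 223.8 with Ecd siRNA, against 178.8, 215.5 and 156.2 with control siRNA, which overlap (0.24, SE 0.23, adjusted p = 0.517). KRT9, a type I keratin of palm and sole epidermis, gave 406.7, 436.9 and 435.0 with Ecd siRNA, against 357.2, 339.6 and 308.8 with control siRNA. It was the only suprabasal keratin whose brightest probe set did not overlap between groups, beside 36.4% of all tested genes. KRT9 did not pass (0.33, SE 0.13, limma adjusted p = 0.0885). KRT2 (-0.005), KRT24 (0.01), KRT3 (0.04), KRT79 (0.11), KRT78 (0.14) and KRT77 (0.42) all had overlapping groups, and KRT24 gave 36.8 to 246.4 in the Ecd siRNA arrays alone. KRT4 and KRT13, the pair of mucosal epithelia, were under the filter, as were KRT12, KRT76 and KRT80.

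Of 6 tested keratins of hair and the hair root sheath, 1 fell, beside 11% of all tested genes lower. KRT75, a type II keratin of the companion layer of the hair follicle, gave 327.5, 340.7 and 265.7 with Ecd siRNA, against 553.3, 509.4 and 437.9 with control siRNA. The groups did not overlap, and 62.2% of the control mean remained (log2 change -0.66, SE 0.15, adjusted p = 0.00898). With every probe set tested on its own, KRT75 lost its call without control siRNA replicate 1 (adjusted p = 0.0630). KRT37, a type I hair keratin, gave 116.1, 111.9 and 98.0 with Ecd siRNA, against 210.6, 162.3 and 153.9 with control siRNA. It did not overlap and did not pass (-0.61, SE 0.23, adjusted p = 0.0831). KRT31 (-0.34), KRT38 (-0.06), KRT74 (0.09) and KRT85 (-0.23) overlapped between groups, and 13 further members of the class were under the filter.

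RefSeq's promoter table (GRCh38.p14) held 16 promoters of 15 tested keratin genes. Of the 5 keratins that passed, KRT75 was in it, and it is shown with that of KRT5, the basal keratin of the same type II cluster on chromosome 12 that did not pass. Each run is the 250 bases before the gene's start on the minus strand, KRT75 at chr12:52434372-52434621 and KRT5 at chr12:52520395-52520644, and capitals mark a match to the SP1 letters GGGCGG on either strand.
KRT75: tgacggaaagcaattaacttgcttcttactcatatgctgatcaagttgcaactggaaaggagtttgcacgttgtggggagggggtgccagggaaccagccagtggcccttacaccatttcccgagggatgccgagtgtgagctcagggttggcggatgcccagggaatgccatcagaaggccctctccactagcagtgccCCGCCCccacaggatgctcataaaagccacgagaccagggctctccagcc
KRT5: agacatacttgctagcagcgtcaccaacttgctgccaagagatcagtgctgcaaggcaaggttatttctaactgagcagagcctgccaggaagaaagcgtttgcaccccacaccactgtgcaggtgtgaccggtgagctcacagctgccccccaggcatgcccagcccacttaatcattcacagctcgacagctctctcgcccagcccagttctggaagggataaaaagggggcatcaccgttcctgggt
KRT75 held 1 such match, beginning 50 bases before the start, and KRT5 held 0. Over the 16 keratin promoters, 4 held GGGCGG, against 42.6% of all 35116 promoters in the table over the same 250 bases. The TATA box letters TATAAA were in 6 of 16, against 10.7%, and the AP-1 letters TGANTCA in 0 of 16, against 6.57%, on both strands and without overlap between motifs. KRT37 and KRT38 each held TATAAA 30 bases and GGGCGG 45 bases before the start. These are letter matches in 1 window and not binding sites.

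KRT23, another type I keratin, had the largest log2 rise of the family. It gave 290.7, 378.9 and 215.6 with Ecd siRNA, against 60.6, 129.0 and 72.4 with control siRNA. The lowest Ecd siRNA array lay above the highest control array (log2 change 1.61, SE 0.29, 95% interval 0.96 to 2.26, adjusted p = 0.00287). With control siRNA its signal, averaged on the log scale, was 83.4 and so below the filter, which KRT23 passed through the Ecd siRNA arrays, and it was absent from the test when the filter was set at the upper 40%. Its only probe set is an _s_at set. KRT222, a keratin-like type I gene, went the other way below the filter, at 11.7, 17.3 and 23.9 with Ecd siRNA, against 38.3, 92.7 and 65.0 with control siRNA. It was the 1 of 20 keratins under the filter whose groups did not overlap in the brightest probe set. That share was not counted for all genes under the filter, and among tested genes it was 36.4%. With no filter KRT222 had a log2 change of -1.23 (limma adjusted p = 0.0281). Its second probe set gave 11.4 to 14.3 and 10.4 to 21.2, overlapping. The brightest probe sets of these 20 genes gave 3.8 to 220.0 over both groups.

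**Figure D4:**
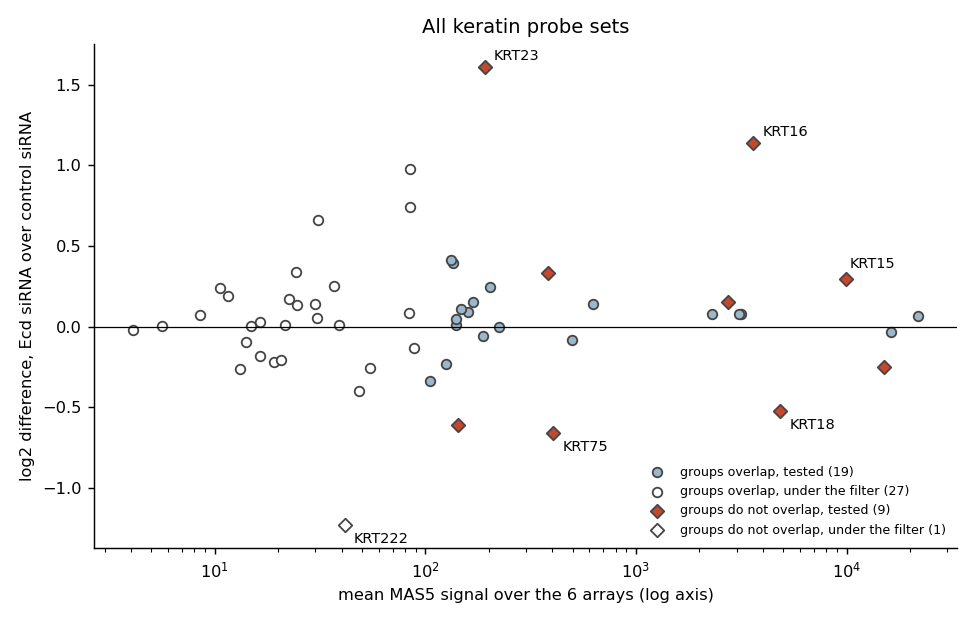
Log2 difference of all 56 keratin probe sets, Ecd siRNA over control siRNA (vertical axis), against their mean MAS5 signal over the 6 arrays (log axis). Filled symbols were tested and diamonds mark probe sets whose groups do not overlap; 28 probe sets lie under the filter, where differences scatter widely, and of the 10 diamonds 9 lie above the filter and 1, KRT222, under it.

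Testing every probe set separately gave the same counts. Each keratin gene that passed has only 1 single-symbol probe set, so both fits read the same values for it. The match is therefore not an independent check. Of 28 keratin probe sets above the filter, 3 rose and 2 fell, against 16.9% of all 27009 probe sets tested that way (8.3% higher and 8.62% lower). The groups did not overlap in 9 of the 28, against 33.6% of all. Another 28 were under it. Of the 9 keratin genes with several probe sets, KRT7 and KRT10 had more than 1 above the filter.

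Partners of the keratin filament were read from lists written from textbook knowledge, with earlier results of these data known. Their counts may therefore not be independent of the data. Desmosomes anchor the filaments at cell contacts through plakins, and of 15 tested plakin and desmosome genes 6 rose, 0 fell and 9 missed the threshold (median 0.20). Counts in these lists stand beside 10.1% of all tested genes higher and 11% lower, and a median of 0.01. PPL (periplakin) had the smallest adjusted p of them, at 1462 ± 28.5 with Ecd siRNA and 600.0 ± 31.3 with control siRNA (log2 change 1.26, adjusted p = 5.01e-06), and the cadherin genes DSG3 (0.50) and DSC2 (0.53) and the plakoglobin gene JUP (0.32) rose too. In the hemidesmosome, which ties keratins to the matrix, ITGB4 rose (0.29) and 3 of 4 tested did not pass. Of 10 other intermediate filament genes tested, the lamin genes LMNB1 (-2.74), LMNB2 (-1.04) and LMNA (-0.70) fell, the neurofilament genes NEFM (0.91) and NEFL (0.45) rose and 5 did not pass. Vimentin, VIM, was bright in both groups at 16564 ± 700.8 and 15016 ± 223.4 (0.14, adjusted p = 0.106). Among 16 epithelial transcription factors tested, 4 rose, 2 fell and 10 did not pass, including rises of GRHL1 (0.97), OVOL1 (0.58) and SOX9 (0.32) and a fall of TFAP2C (-0.42). The 2 regulators KLF4 (0.12) and KLF5 (0.13) did not pass.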

How the data were processed

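Values are linear intensity readings as deposited by the authors, 1 for each probe set of an array, and were made with MAS5 per the submitters' processing notes. No MAS5 version or scaling target is named there. The table held 54675 probe sets on 6 arrays and 0 missing values. Groups came from the sample titles. Symbols came from GEO's platform annotation, in which 41091 probe sets had 1 symbol, and the gene identifiers of all 44 keratins matched RefSeq (GRCh38.p14). The probe set with the highest mean log2(signal + 16) was taken per gene, the upper 60% by that mean were kept, and limma 3.58.1 (lmFit, eBayes with trend, R 4.3.3) compared the groups without covariates over 14603 genes, or over 27009 single probe sets. The members, gene lists and naming rule (every basal, stress, luminal and tested keratin, up to 4 called genes per partner list) were chosen with earlier results of these data known. KRT222, the under-filter keratins, VIM, KLF4 and KLF5 were named after their values were seen. NEFL and some cell type markers, among them EPCAM, CLDN4 and LAD1, were named outside that rule. CDH1 was named while CLDN1 and CDH3, with smaller adjusted p, were not. Data were simulated for the 14603 genes with normal noise and 200 genes changed. There, 81% of changes of 1 and 44% of 0.5 on the log2 scale were recovered, with 5 false calls of 130. In the arrays 3075 genes were called, so the adjusted p threshold fell elsewhere and these rates need not hold for them. The number of arrays limits the precision. Alternatives changed the pseudocount, scaling, filter, choice of probe sets, trend, array weights and replicate block, or left out 1 array.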

Additional observations from a re-analysis of the deposited data

How the results depend on the processing

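The 3 higher and 2 lower keratin genes stayed 2 to 3 and 2 over the fits without 1 array, and the probe sets stayed 2 to 3 and 1 to 2. Without _s and _x probe sets 1 gene and 1 probe set were lower, because KRT18 has no other. Over all alternatives of the gene fit KRT16 ran from 1.09 to 1.21, KRT18 from -0.63 to -0.47, KRT23 from 1.25 to 1.88 and KRT75 from -0.75 to -0.55. Each of these was past the threshold in every gene fit that tested it, while KRT15 (0.26 to 0.36) lost its call as given above. In the fit of single probe sets KRT75 lost its call without control siRNA replicate 1 (adjusted p = 0.0630). KRT15 lost it there also without control siRNA replicate 3 (adjusted p = 0.0601) and Ecd siRNA replicate 2 (0.0659). KRT37 passed without the trend (adjusted p = 0.0291) and with means of probe sets (0.0426). Whether arrays with the same replicate number were handled together is not known. Deviations of same-numbered arrays correlated at -0.00926, 0.0789 and 0.152, and those of differently numbered arrays at -0.134 to 0.057. With the replicate block 3 keratin genes were higher and 2 lower, and 3277 against 3075 genes were called in all. Signs turned among keratins that did not pass. KRT24 was at -0.048 with a pseudocount of 1, -0.011 with quantile normalization, -0.00079 with a common median and -0.16 with array weights, and KRT74 at -0.047 with means of probe sets. Leaving out 1 array gave -0.10 to 0.12 for KRT2, -0.45 to 0.71 for KRT24, -0.21 to 0.27 for KRT3, -0.228 to 0.071 for KRT38, -0.111 to 0.025 for KRT5, -0.19 to 0.33 for KRT74, -0.095 to 0.25 for KRT79, -0.017 to 0.141 for KRT8 and -0.82 to 0.49 for KRT85. The cause was not tested. Most of these lie near the filter signal, and no detection calls were used here.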
